A study of Mus musculus with 4 samples.

Results

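ATAC-seq, in which a transposase cuts open chromatin and the cut sites are sequenced, was used to ask how removal of cholesterol changed chromatin accessibility in RAW macrophages, a mouse macrophage cell line. The 2 control samples were left untreated. The 2 MCD samples were treated with 5 mM MCD (methyl-β-cyclodextrin, a ring-shaped oligosaccharide that extracts membrane cholesterol) in serum albumin for 1 hr, and the labels name no other difference between the groups. The genes described here are 6 enzymes of sterol synthesis (Hmgcs1, Pmvk, Cyp51, Msmo1, Sc5d and Dhcr7) and 2 sterol efflux transporters (Abca1 and Abcg1). An interval was given to a gene when that gene had the nearest transcription start site (TSS) among GENCODE basic transcripts with an Entrez identifier. By this rule 13 of the 3812 intervals in the table of differential accessibility belonged to the 8 genes, 9 to the synthesis genes and 4 to the efflux transporters.

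The table holds 1 mean of normalized reads for each condition and interval, as the authors made it, and each interval is 201 bp long. It was limited to intervals that the authors called different between the conditions. The members were chosen by the difference between these same means, so direction and size are given as descriptions, with no test, no SD and no error on any value. Read depth behind a mean is unknown because no value per sample was in the table. Nothing said whether the 2 samples of a group were separate cultures. The table offers no check of macrophage markers either, since an interval that did not change is not in it.

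Cells make cholesterol from acetyl-CoA through the mevalonate pathway, and when membrane sterol falls, SREBP2 leaves the endoplasmic reticulum and turns on the synthesis enzymes through sterol regulatory elements in their promoters. When sterol is in excess, oxysterols and sterol intermediates activate the nuclear receptor LXR with its partner RXR, and LXR turns on Abca1 and Abcg1, which hand cholesterol to apolipoprotein A-I and HDL. Macrophages take up large amounts of lipoprotein and rely on this efflux.

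All 9 intervals of the synthesis genes had a higher mean after MCD, by 2.44-fold to 11.0-fold, whereas 3 of the 4 intervals of the efflux transporters had a lower mean. Over all listed intervals 73.2% were higher and 26.8% were lower after MCD. The median difference, as MCD minus control on the log2 scale, was 1.67 over the 9 synthesis intervals and -1.20 over the 4 efflux intervals, beside 1.14 over all 3812 intervals and 1.39 over the 2790 that were higher. All 9 synthesis intervals were at least 2-fold higher, as were 57.3% of all listed intervals. However, 7 of the 9 had a control mean below 25.9 reads, where all 1285 listed intervals were higher and by at least 1.15 (log2). For these 7 a place in the table already went with a rise of at least 2-fold, so their count cannot be set against the shares of all listed intervals. Among the efflux intervals 2 were at least 2-fold lower, beside 12.5% of all listed intervals. That share also counts the 1285 intervals below 25.9 reads in control, none of them lower. All 4 efflux intervals lay above that level, so their counts cannot be set against the shares of all listed intervals. Of the 2, 1 had an MCD mean of 20.2 reads, in the range below 25.4 where all 142 listed intervals were lower. Both of the efflux intervals that were at least 2-fold lower are in Abcg1, and 4 of the 9 synthesis intervals are of Hmgcs1. The counts are therefore not of separate genes. With the median of each gene taken first, the medians were 2.02 for synthesis and -0.77 for efflux.

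**Figure D1:**
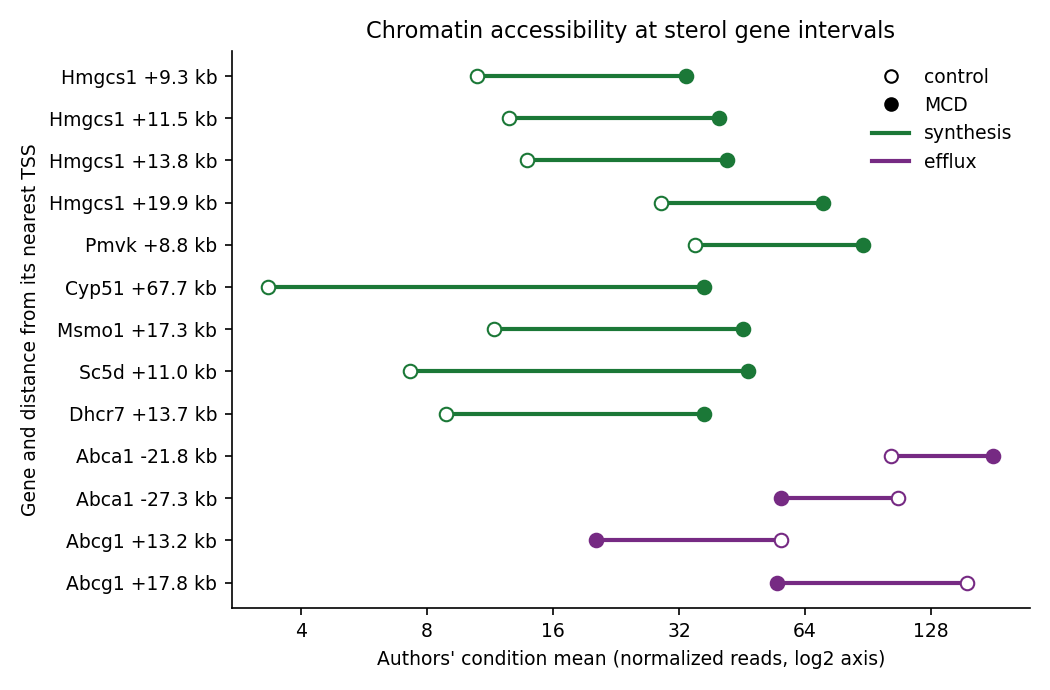
The authors' mean of normalized reads in control (open circles) and MCD (filled circles) for each of the 13 intervals, on a log2 axis, labelled by gene and by distance from the nearest TSS of that gene (positive is downstream). All 9 synthesis intervals (green) run to the right, from 3.34 to 35.0 reads in control to 33.2 to 88.1 after MCD, and 3 of 4 efflux intervals (purple) run to the left.

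Hmgcs1 is the cytosolic HMG-CoA synthase, which makes HMG-CoA at the start of the pathway. It had 4 intervals within 10826 bp, more than any other of the 8 genes. The first lay wholly inside a coding exon of Hmgcs1 (chr13:119699766-119699966), 9302 bp downstream of the TSS, and its mean went from 10.5 reads in control to 33.2 after MCD. The second lay in intron 5 (chr13:119701995-119702195) and went from 12.6 to 39.9 reads. These intervals were alike in size, 3.15-fold and 3.18-fold higher.

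The third Hmgcs1 interval (chr13:119704301-119704501) overlapped a coding exon by 77 bp and otherwise lay in intron 7, and its mean went from 13.9 to 41.7 reads. The fourth (chr13:119710391-119710591) lay 2131 bp past the 3′ end of Hmgcs1, inside the 3′ untranslated exon of the neighbouring gene Nim1k, and went from 29.0 to 70.8 reads. It was the most open of the 4 in both conditions and had the smallest fold difference, 2.44-fold. A transcript without an Entrez identifier, Gm48342, starts between these intervals, 48 bp from the third, and took all 4 when every annotated gene was allowed.

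The exonic Hmgcs1 interval is shown because it is coding sequence rather than a promoter or an intron. On the plus strand of GRCm38 it reads as follows, with the overlapping matches to the CCAAT box (here as its reverse complement) and to the GC box (GGGCGG) in capitals.

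Hmgcs1 chr13:119699766-119699966: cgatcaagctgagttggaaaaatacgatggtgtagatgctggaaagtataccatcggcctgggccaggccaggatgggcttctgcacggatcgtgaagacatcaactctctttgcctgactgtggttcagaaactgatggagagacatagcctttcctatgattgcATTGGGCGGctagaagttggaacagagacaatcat

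Pmvk, the kinase that turns phosphomevalonate into its diphosphate, had 1 interval (chr3:89468329-89468529), 8758 bp downstream of the TSS. It spanned the end of intron 3 and the first 16 bp of coding sequence in the exon that follows. Its mean went from 35.0 reads in control to 88.1 after MCD, 2.52-fold higher. Of the 9 synthesis intervals it was the most open in both conditions.

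Cyp51, the lanosterol demethylase, was given 1 interval (chr5:4036849-4037049), and it had the largest difference of the 13. Its mean went from 3.34 reads in control to 36.6 after MCD, 11.0-fold, which ranked 4 among the 2790 intervals that were higher. The control mean was near the bottom of the table, above that of only 0.105% of listed intervals. The interval is not in Cyp51. It lies 44096 bp past the 3′ end of the gene and 67697 bp from its TSS, in intron 25 of Akap9, which encodes a scaffold protein of the centrosome and Golgi. It went to Akap9 when TSSs of all transcripts with an Entrez identifier were used, and to Gm43031 when every annotated gene was allowed.

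The sequence of that interval is shown because most of it is a tandem repeat. Capitals mark runs of at least 2 whole copies of the 4-base unit, in any phase, which cover 147 of 201 bases. The genome sequence marks 64.2% of the interval as repeat, and 5.33% of all listed intervals were marked over at least 50% of their length. How reads were placed in this repeat was not tested.

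Cyp51 chr5:4036849-4037049: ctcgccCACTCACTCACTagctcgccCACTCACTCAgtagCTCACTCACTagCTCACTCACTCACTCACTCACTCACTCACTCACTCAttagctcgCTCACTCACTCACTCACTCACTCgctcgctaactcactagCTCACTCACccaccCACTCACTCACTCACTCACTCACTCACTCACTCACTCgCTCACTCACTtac

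The 3 intervals of other genes nearest to it in the plane of the control and MCD log2 means belonged to 1700123O21Rik, Eea1 and Ece1, at distances of 0.13, 0.23 and 0.27. Their means were 3.25, 3.25 and 3.21 reads in control and 33.6, 31.4 and 30.6 after MCD, so all 3 started as low as the Cyp51 interval.

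Msmo1 is the methylsterol monooxygenase that removes methyl groups at carbon 4 of the sterol. Its interval (chr8:64716328-64716528) was intergenic, 1611 bp past the 3′ end of the gene and 17264 bp from its TSS. The mean went from 11.6 reads in control to 45.5 after MCD, 3.94-fold higher. It is the most AT-rich of the 13, at 31.3% GC against a median of 47.8% over all listed intervals, and is shown as an example with no match to any motif searched here.

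Msmo1 chr8:64716328-64716528: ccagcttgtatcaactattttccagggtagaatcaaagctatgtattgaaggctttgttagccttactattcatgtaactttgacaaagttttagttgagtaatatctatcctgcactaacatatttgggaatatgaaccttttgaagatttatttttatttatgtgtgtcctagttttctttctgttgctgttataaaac

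Sc5d, the sterol C5-desaturase of the late pathway, had 1 interval (chr9:42252993-42253193) that lay wholly in its 3′ untranslated exon, 11007 bp from the TSS. Its mean went from 7.29 reads in control to 46.8 after MCD. The 6.42-fold difference was the second largest of the 13 and ranked 60 among the 2790 higher intervals.

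Dhcr7, the reductase that finishes cholesterol from 7-dehydrocholesterol, had 1 interval in intron 7 (chr7:143843916-143844116). It was 13669 bp from the nearest TSS, or 2582 bp when all transcripts were used. Its mean went from 8.87 reads in control to 36.8 after MCD, 4.15-fold higher. It holds an AP-1 match, in capitals below, and 87.1% of it is marked as repeat in the genome sequence.

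Dhcr7 chr7:143843916-143844116: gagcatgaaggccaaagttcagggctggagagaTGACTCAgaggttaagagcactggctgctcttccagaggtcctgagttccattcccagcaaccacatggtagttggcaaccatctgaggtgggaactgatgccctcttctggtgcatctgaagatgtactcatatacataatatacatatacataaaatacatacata

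The synthesis intervals differed much less from each other after MCD than in control. In control the lowest and highest means were 3.34 and 35.0 reads, and after MCD they were 33.2 and 88.1. Where an interval is low in control, however, the table holds only those with a large difference. Every interval that was lower after MCD had a control mean of at least 25.9 reads, and 7 of the 9 synthesis intervals lay below that level, where all 1285 listed intervals were higher and by at least 1.15 on the log2 scale. The other two, of Pmvk and the fourth Hmgcs1 interval, lay in the range where the table lists both directions. The 4 efflux intervals had control means of 56.1 to 156 reads, above that level. The table has a like limit on the MCD side, since all 142 intervals with an MCD mean below 25.4 reads were lower, and the first Abcg1 interval described below, at 20.2 reads, is 1 of these.

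**Figure D2:**
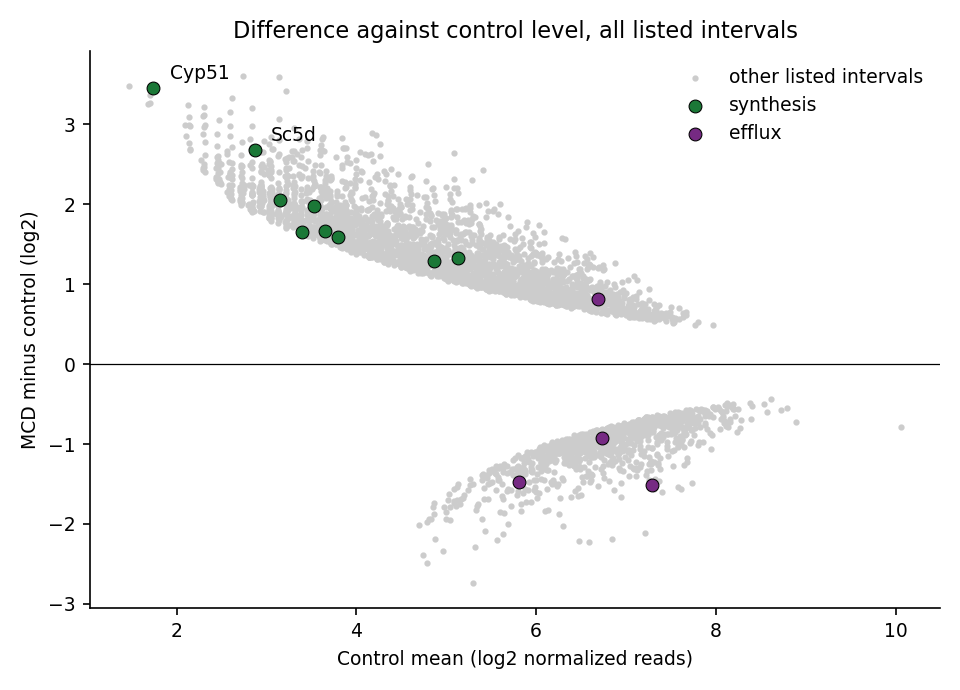
Difference between MCD and control (log2, vertical) against the control mean (log2 normalized reads, horizontal) for all 3812 listed intervals (grey), with the 9 synthesis (green) and 4 efflux intervals (purple) marked. The band without points around 0 is where no interval was called different, it widens towards low control means, and no interval below a log2 control mean of 4.69 was lower after MCD.

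Abca1, the transporter that loads cholesterol onto apolipoprotein A-I, had 2 intervals upstream of its TSS that went in opposite directions. The nearer (chr4:53181657-53181857), 21762 bp upstream, went from 103 reads in control to 180 after MCD, 1.75-fold higher. The farther (chr4:53187233-53187433), 27338 bp upstream, went from 107 to 56.1 reads, which is 47.3% lower. The 2 intervals are 5375 bp apart, and started from nearly equal control means. Both are intergenic and neither holds repeat-marked bases.

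The pair is shown because neighbouring intervals with like control means parted after MCD. The one that was higher holds an AP-1 match, in capitals, and a CCAAT box, left in small letters. The other holds no match to any motif searched. Whether either motif bears on the difference was not tested.

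Abca1 chr4:53181657-53181857: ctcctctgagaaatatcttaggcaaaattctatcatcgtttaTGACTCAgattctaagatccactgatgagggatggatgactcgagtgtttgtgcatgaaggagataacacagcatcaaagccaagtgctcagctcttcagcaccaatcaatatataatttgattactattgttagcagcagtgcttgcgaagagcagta
Abca1 chr4:53187233-53187433: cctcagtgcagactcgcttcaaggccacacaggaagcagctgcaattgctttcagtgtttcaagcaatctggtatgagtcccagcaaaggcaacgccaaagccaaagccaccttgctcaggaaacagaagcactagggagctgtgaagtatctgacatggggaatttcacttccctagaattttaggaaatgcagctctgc

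Abcg1, the transporter that passes cholesterol to HDL, had 2 intervals in its intron 2 and both were lower after MCD. The first (chr17:31070962-31071162), 13235 bp from the TSS, went from 56.1 reads in control to 20.2, 64.0% lower. The second (chr17:31075545-31075745), 17818 bp from the TSS, went from 156 to 54.8 reads, 64.9% lower. The 2 intervals thus lost nearly the same share of signal although the second was more open in both conditions. They ranked 103 and 89 by size among the 1022 intervals that were lower.

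The Abcg1 intervals are shown as the pair that was lower together. The first holds a PU box (GAGGAA), the core bound by the macrophage factor PU.1, in capitals.

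Abcg1 chr17:31070962-31071162: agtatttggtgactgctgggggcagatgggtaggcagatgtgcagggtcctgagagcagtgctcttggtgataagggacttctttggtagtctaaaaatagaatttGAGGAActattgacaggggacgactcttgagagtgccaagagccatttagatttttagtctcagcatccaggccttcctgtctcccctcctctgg
Abcg1 chr17:31075545-31075745: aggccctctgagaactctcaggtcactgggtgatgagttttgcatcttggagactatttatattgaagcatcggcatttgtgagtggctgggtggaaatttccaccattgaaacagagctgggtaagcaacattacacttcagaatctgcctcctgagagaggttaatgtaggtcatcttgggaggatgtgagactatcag

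The 3 intervals of other genes nearest to the second Abcg1 interval in the plane of the log2 means were those of Olfr211, Prps1l1 and Txnip, at distances of 0.037, 0.042 and 0.087. Their means were 159, 153 and 150 reads in control and 53.9, 55.9 and 57.1 after MCD.

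None of the 13 intervals lay within 3 kb of a TSS in the set used for assignment, beside 9.99% of all listed intervals. With TSSs of every annotated gene the Hmgcs1 intervals of introns 5 and 7 lay 2354 and 48 bp from that of Gm48342, and with all transcripts the Dhcr7 interval lay 2582 bp from a TSS of its own gene. The synthesis intervals instead lay late in their genes. Counted from the outermost TSS, 8 of 9 had their midpoint in the second 50% of the gene or within 3 kb past its 3′ end, and the Cyp51 interval was the exception. The same held for 17.5% of the 2790 higher intervals and for 19.4% of the 1022 lower ones. All 4 Hmgcs1 intervals are among the 8 and share 1 gene, so the count covers 5 genes. None of the 4 efflux intervals lay there, since those of Abca1 were upstream and those of Abcg1 were at 22.2% and 29.8% of the gene. This position was compared after the values had been seen.

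**Figure D3:**
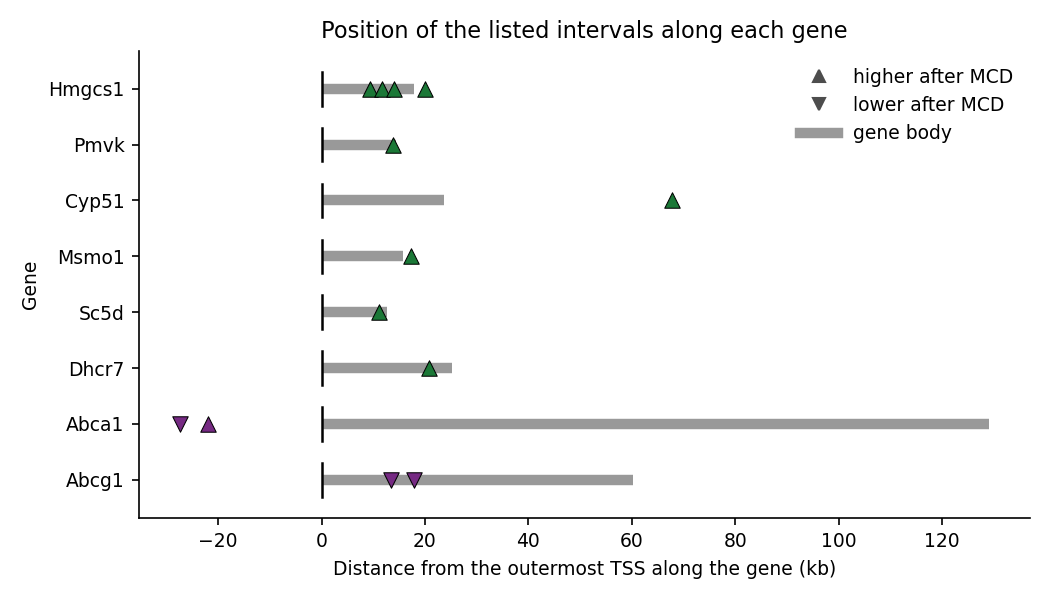
Position of each interval along its gene, in kb from the outermost TSS (vertical tick), with the gene body as a grey bar and triangles pointing up for intervals higher and down for intervals lower after MCD. The synthesis intervals (green) sit in the later part of the gene or just past it, except for the Cyp51 interval, and the efflux intervals (purple) sit upstream of Abca1 and early in Abcg1.

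The sterol regulatory element core (TCACNCCAC, searched on both strands), the site of SREBP, was in 0 of the 13 intervals. It was in 1.79% of all higher intervals and 0.391% of the lower ones. The sequence around the TSS, from 250 bases before to 50 after in RefSeq, was given for 7 of the 8 genes, without Abcg1. Of these only Hmgcs1 had a match, which began 137 bases upstream of the RefSeq start. Of the 32851 promoter windows 1.24% held one, a share of windows and not of genes. The match is shown in capitals because it is the only one in the windows and intervals of these genes that were searched. No listed interval overlaps it.

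Hmgcs1 promoter chr13:119690204-119690232, plus strand: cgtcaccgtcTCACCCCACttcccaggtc

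The AP-1 consensus (TGANTCA) was in 3 of the 13 intervals, those of Dhcr7 and Sc5d and the higher one of Abca1. It was in 52.8% of all higher intervals and 3.33% of the lower ones. The 3 matches all had G or C at the centre, and so were not lost with the stricter letters TGAGTCA or TGACTCA, found in 45.9% and 1.96%. Of the 10 member intervals that were higher after MCD, 7 had no AP-1 match.

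The PU box was in the Pmvk interval and in 1 Abcg1 interval, beside 28.1% of the higher and 52.2% of the lower intervals. The CCAAT box (CCAAT), bound by NF-Y, was in 1 Hmgcs1 and 1 Abca1 interval, beside 22.2% and 21.1%. The GC box was in 1 Hmgcs1 interval and the Sc5d interval, beside 9.75% and 2.45%. The E-box (CACGTG), the cAMP response element (TGACGTCA), the κB site and the LXR direct repeat were in none of the 13. These had shares among the higher intervals of 3.87%, 1.47%, 8.67% and 0.108%, and among the lower ones of 5.68%, 0%, 2.54% and 0.0978%. With 100 bp added on each side, 1 synthesis interval held a κB site, beside 12.4% of the higher and 3.91% of the lower intervals. In the promoter windows all 6 synthesis genes held a CCAAT box and Abca1 did not. The GC box was in windows of Hmgcs1, Cyp51, Msmo1, Sc5d, Dhcr7 and Abca1, and the E-box in those of Sc5d, Dhcr7 and Abca1. Over all promoter windows the shares were 37.4%, 35.7% and 7.15%. These are shares of single windows, whereas a gene was counted if any of its windows matched, and the 7 genes had 10 windows. The counts and shares are therefore not comparable.

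Around these 8 genes stand the other genes that make, move and store sterol. A list of 52 such genes, which includes the 8, had 16 with at least 1 listed interval. Of the 22384 genes with a TSS in the set 11.7% had one. Within 100 kb of a TSS, whichever gene was nearest, 25 of the 52 had a listed interval, beside 30.5% of all genes. The 8 were chosen with their intervals already known, so 8 of the 16, and 8 of the 25, were fixed by that choice. The shares of the list therefore cannot show whether sterol genes had intervals more often than other genes. Of the 20 synthesis genes 6 had an interval, all of them the members described above and all higher, while 14 had none, Sqle and Fdps included. Among genes as a whole 8.72% had a higher interval and 3.73% a lower one. None of the 8 genes that control SREBP (Srebf1, Srebf2, Scap, Insig1 and 4 more) had an interval.

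Of the 10 uptake and lysosomal genes 5 had an interval, 1 higher and 4 lower. The interval of Cd36, a scavenger receptor for oxidized lipoprotein, went from 52.2 reads in control to 96.7 after MCD. It was 1.85-fold higher, less than any of the 9 synthesis intervals, and lies in an intron. Its control mean was above those of all 9, however, and 7 of them lay where only rises of at least 1.15 (log2) were listed. The sizes are therefore not comparable.

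The 4 uptake genes with a lower interval were Scarb1, Lrp1, Msr1 and Lipa, all intronic. Scarb1, the HDL receptor, had the largest difference of the 4 and went from 166 to 66.9 reads. Lrp1, an endocytic receptor for remnant lipoproteins, went from 103 to 52.3 reads, and Msr1, the class A scavenger receptor, went from 110 to 62.8. The interval of Lipa, the lysosomal acid lipase, went from 163 to 102 reads and had the smallest difference of the 4.

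Among the 10 efflux and LXR genes, Rxra and Ch25h had intervals beside Abca1 and Abcg1, and all 3 of these intervals were lower. That of Rxra, the partner of LXR, lay in an intron and went from 80.8 to 40.9 reads. Ch25h makes 25-hydroxycholesterol, an oxysterol that activates LXR and holds back SREBP. One of its 2 intervals went from 123 to 60.6 reads, 84922 bp from the TSS, and the other went from 31.2 to 6.17 reads, 15359 bp upstream. The latter is marked as repeat over 100% of its length.

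Among the 4 genes of cholesteryl ester and lipid droplet handling only Plin2, the coat protein of lipid droplets, had intervals. Both were upstream and higher, from 14.7 to 42.1 reads and from 68.9 to 148 reads. Both held an AP-1 match. Of the 23 intervals of the 52 genes, 13 were higher and 10 lower.

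**Figure D4:**
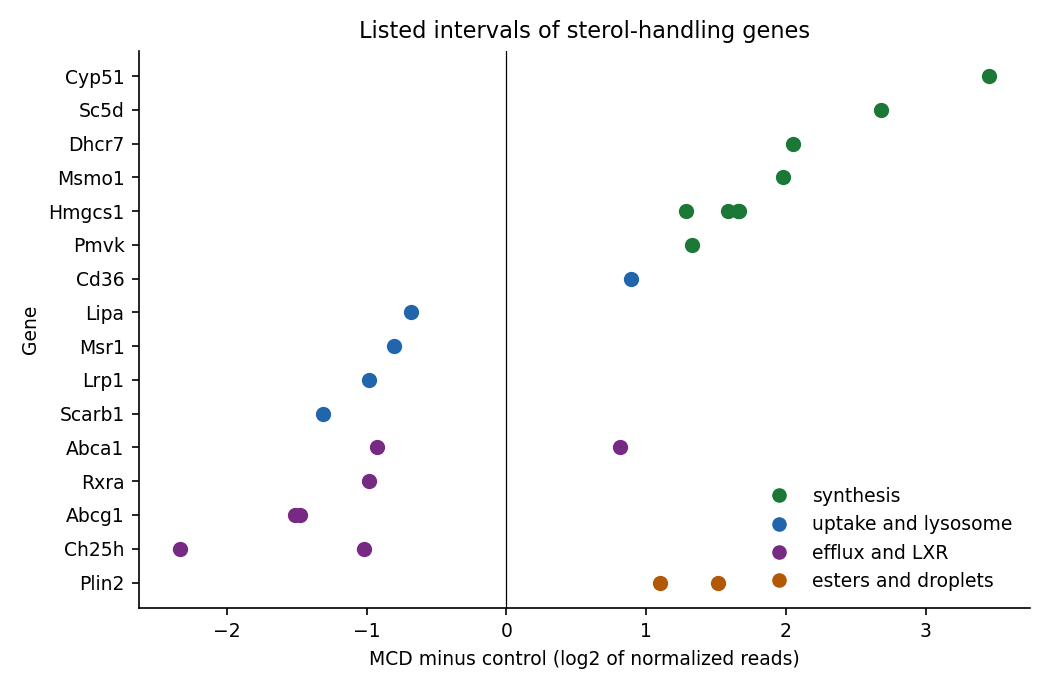
Difference between MCD and control (log2 of normalized reads) for each of the 23 listed intervals of the 16 sterol genes that have one, in 4 colours for synthesis, uptake and lysosome, efflux and LXR, and esters and droplets. The synthesis intervals lie between 1.29 and 3.46, and Abca1 is the only gene with points on both sides of 0.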

How the data were processed

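Per the labels, ATAC-seq was done on 2 untreated and 2 MCD samples of RAW macrophages. The submitters' processing notes name cutadapt 2.6, Bowtie2 2.4.4, MACS3 3.0.0, deepTools 3.5.1, DiffBind and R 4.0.2 with mm10. Any shift of reads for the transposase and the scaling of libraries are not given in the sources used here. The authors deposited 1 log2 mean of normalized reads per condition for each of 3812 differential intervals, and these pooled means are the values given here, taken out of log2 where reads are named. The scaling could therefore not be varied. The table also holds the authors' fold changes, p-values and FDRs, which were not used.

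Each interval went to the gene with the nearest TSS in GENCODE M21 (GRCm38). Several sets of TSSs (all transcripts, 1 per gene, and basic transcripts, each with an Entrez identifier) were tried. Basic transcripts were kept because they gave the totals of an earlier description of these data and an interval for Cyp51. The members, gene lists and motifs were chosen with earlier results of these data known. All members and all list genes with an interval are named, with the 3 intervals of other genes nearest in both log2 means to the member interval of largest difference in each group. Late position in the gene, the 2 log2 means at which the table lists a single direction and the listing of all transcripts were added after the data were seen. Repeat-marked bases are lower-case letters of the RefSeq genome. The motif search and the assignment were tested on simulated data. Python 3.11.15, pandas 2.3.3 and pysam 0.24.0 were used. Expression was not analysed here, and some genes of the sterol list are not reported here.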

Additional observations from a re-analysis of the deposited data

How the results depend on the processing

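No paired analysis was possible because the table holds condition means and no value per sample, and for the same reason no replicate could be left out. Neither median changed sign under the alternatives it was computed for, and none of the intervals of the 6 synthesis members was lower under any alternative run on that count. The alternatives drew on the same listed intervals, and 7 of the 9 synthesis intervals had control means where all 1285 listed intervals were higher. For these 7 the alternatives could not have given a lower interval. With TSSs of protein-coding genes 2 efflux intervals were higher and the efflux median was -0.93. With TSSs of all annotated genes 3 synthesis intervals were higher and 1 efflux interval lower, with medians of 2.05 and -0.057, because intervals went to Gm genes, as those of Hmgcs1 and Abcg1 did. Within 100 kb of a TSS 2 efflux intervals were higher. At that distance 25 of the 52 genes, the chosen members included, had an interval, beside 30.5% of all genes. With a difference of at least 1 (log2), 0 efflux intervals were higher. Adding 8 reads to each mean gave medians of 1.22 and -1.01. The interval nearest to the TSS of each gene gave 2.02 and -0.33, and the median of each gene 2.02 and -0.77. With 100 bp added on each side, 5 intervals (38.5%) held the AP-1 consensus. The shares also rose elsewhere, to 64.8% of all higher and 7.73% of all lower intervals. Chosen after seeing the data, both TSSs of all transcripts and leaving out the Cyp51 interval left 8 higher synthesis intervals and a synthesis median of 1.66. The minimum signal, the looser sterol regulatory element core and the promoter distance of 1 kb changed none of the values they were run on. The minimum signal was a log2 mean of 5 in either condition. Of the synthesis intervals only that of Pmvk reached it in control, so the others passed through their MCD means alone. The unchanged synthesis counts and median under this filter therefore carry no support.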

Other observations

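Some listed intervals lay within 100 kb of a TSS of a sterol gene but nearest to a gene outside the list, and so are not among the 23 intervals above. There were 18 such intervals, for 14 of the 52 genes, 17 of them higher and 1 lower after MCD. Among all listed intervals 73.2% were higher. Several of the 18 had control means below 25.9 reads, where all 1285 listed intervals were higher. Their direction was fixed by that level, so the 17 cannot be set against this share. Near Sc5d, 2 intervals whose nearest TSS was that of Gm36435 went from 6.51 reads in control to 30.3 after MCD and from 29.3 to 76.9. Near Dhcr7, 1 interval nearest to Gm498 went from 10.4 to 36.3 reads, and near Hmgcs1, 1 nearest to Zfp131 went from 19.3 to 52.6. All 4 were higher. All but the second near Sc5d had control means below 25.9 reads, where no listed interval was lower. A likeness in direction to the intervals given to these genes therefore cannot be read from them. Near genes of the efflux and LXR list, all 6 intervals of this kind were higher, unlike most of those given to that list. Because most listed intervals were higher, 6 are too few to set this list apart. That of Abca1, nearest to AI427809, went from 63.5 to 126 reads. Nr1h3, which encodes LXRα, had 1 that went from 12.0 to 38.7 reads, and Apoe, an apolipoprotein that accepts cholesterol, had 1 that went from 7.12 to 27.5. Lpcat3, a phospholipid acyltransferase, had 1 that went from 26.3 to 61.0 reads, and Cyp27a1, the sterol 27-hydroxylase, had 2 that went from 32.3 to 77.1 and from 46.0 to 110. Near Lrp1, 2 intervals nearest to Nab2 went from 20.3 to 81.7 reads and from 176 to 267.

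Among synthesis genes with no interval of their own, Lss (oxidosqualene cyclase) had 1 within this range that went from 9.97 to 35.6 reads, Mvd (mevalonate diphosphate decarboxylase) had 1 that went from 30.1 to 83.9, and Fdft1 (squalene synthase) had 2 that went from 29.6 to 66.5 and from 31.5 to 79.8. Idi1, the isopentenyl diphosphate isomerase, had 1 that was lower, from 98.4 to 51.0 reads. Near Srebf1, 1 interval nearest to Rai1 went from 23.9 to 79.5 reads. Which gene any of these intervals serves was not tested.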
